A study of Mus musculus with 6 samples.

Results

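Wnt ligands, their Frizzled receptors and co-receptors, and the secreted proteins that hold Wnts back were followed in the infarcted mouse heart. Members were chosen by symbol, with earlier results of these data known. They were the genes named *Wnt* with a number, *Fzd1* to *Fzd10*, and *Sfrp* and *Dkk* genes with *Dkkl1*. *Wif1*, *Frzb*, *Lrp5*, *Lrp6*, *Axin2*, *Ror1*, *Ror2* and *Ryk* were added by name. This gave 46 genes, of which 39 were listed in at least 1 library, out of 17441 genes listed in the whole series. The 46 were 19 Wnt ligands, 10 Frizzled receptors, 5 co-receptors, 11 secreted inhibitors and *Axin2*. RNA came from heart tissue below the ligature, 3 days after surgery, of 12-week-old male mice. WT sham mice had the operation without ligation, WT MI mice had the left anterior descending coronary artery tied, and *Card9* KO MI mice, of a line that lacks the immune adaptor gene *Card9* in the whole body, had the same ligation. All were on a C57BL/6 background. Each group had 2 libraries. The groups are also called sham hearts, WT infarcts and KO-labelled infarcts. Sham-operated *Card9* KO mice were not analysed here, and in the contrast of *Card9* KO MI with WT sham the genotype and the infarct cannot be told apart. The labels do not say whether each library stands for 1 mouse, so the p-values measure the spread between these libraries, which may be partly technical.

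Wnts are lipid-modified secreted proteins that act over short distances. At the target cell a Wnt binds the cysteine-rich domain of a Frizzled receptor together with *Lrp5* or *Lrp6*, which stops the destruction of β-catenin and switches on TCF/LEF target genes, among them the feedback gene *Axin2*; with *Ror1*, *Ror2* or *Ryk* as partner, Wnts signal without β-catenin to the cytoskeleton and cell polarity. Secreted Frizzled-related proteins (the *Sfrp* genes and *Frzb*) carry a Frizzled-like domain and bind Wnts outside the cell, *Wif1* does the same with another domain, and *Dkk1*, *Dkk2* and *Dkk4* block or tune *Lrp5* and *Lrp6*. In the adult heart the pathway is known to be quiet and to be engaged again after injury, where fibroblasts, the epicardium and endothelial cells express many of its parts.

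Values are FPKM, fragments scaled to gene length and library depth, so levels can be compared between genes per length. The depth, judged by how far apart the lowest values were spaced, was such that 3 fragments on a 2 kb transcript gave an FPKM of 0.35 in the deepest library and 0.499 in the shallowest, counting error only. *Card9* itself had an FPKM of 0.99 and 1.03 in the sham hearts, 3.39 and 5.08 in the WT infarcts, and 9.85 and 6.94 in the KO-labelled infarcts. The targeted gene was therefore not lower in these libraries, which go by their label throughout, and each direction between them and WT MI rests on that label. The heart label held, since all 9 cardiomyocyte markers were listed in every library, with *Myh6* at an FPKM of 3454.09 or above. Tests used limma on log2(FPKM + 1) for the 13120 genes that reached an FPKM of 1 in 2 or more libraries, with calls at a Benjamini-Hochberg adjusted p below 0.05; for low genes this scale makes changes look smaller than they are. Of the 46 members, 24 passed this filter, and *Axin2* was the 1 gene that passed through a single group, WT sham, so it had to be listed higher there. Scaling matters for the sham contrasts: between WT MI and WT sham the median over all tested genes was, in log2 units, 0.185 in the deposited scale, −0.004 after upper-quartile scaling and −0.074 after quantile normalization; the contrast of *Card9* KO MI with WT sham had 0.238, 0.015 and −0.087. Fold changes and tests are against 0, so those of the sham contrasts need to be read beside 0.185 and 0.238. Reads shared between overlapping genes or gene families could not be told apart.

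**Figure D1:**
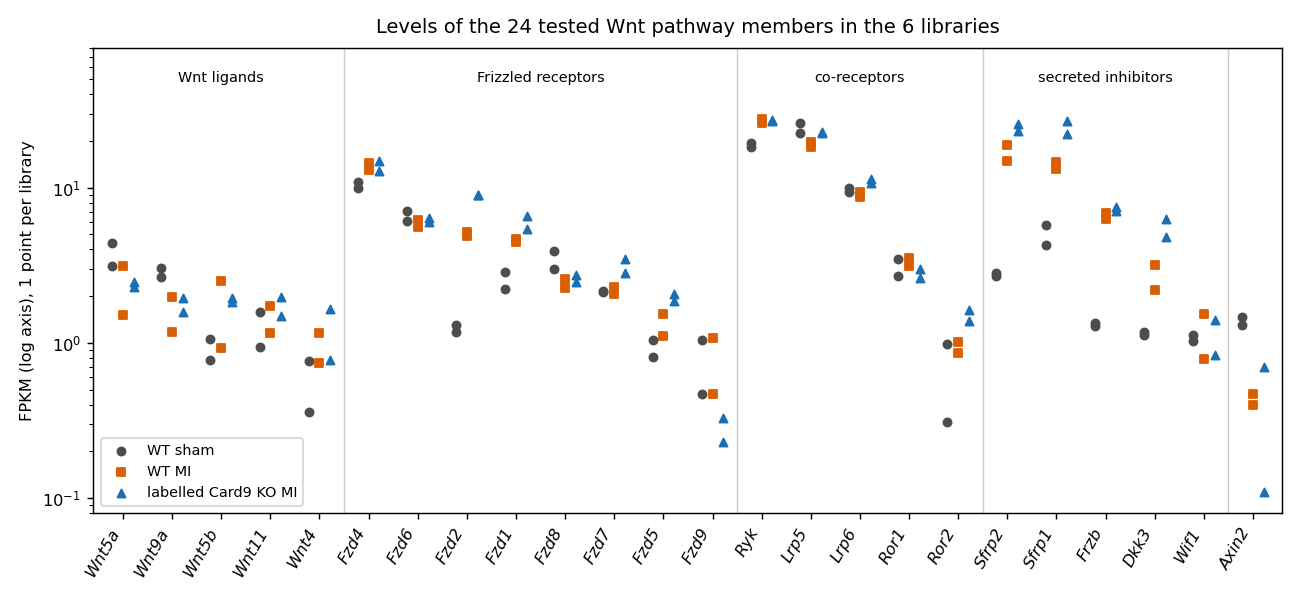
FPKM (log axis) of the 24 tested members in each library, grouped by role; circles are WT sham, squares WT MI and triangles the libraries labelled Card9 KO MI. The secreted inhibitors Sfrp2, Sfrp1, Frzb and Dkk3 and the receptor Fzd2 rise most from sham to infarct libraries. Axin2, which passed the filter through WT sham alone, is lower in all infarct libraries. The ligands overlap between WT sham and WT MI except for Wnt9a.

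The first comparison asked what infarction did to the family. The members that rose were 4 secreted inhibitors, 2 Frizzled receptors and 1 co-receptor, and no ligand passed the test. In bulk tissue, fewer cells of a type and less RNA per cell cannot be told apart. In WT MI against WT sham, 7 of the 24 tested members rose (*Sfrp2*, *Frzb*, *Fzd2*, *Sfrp1*, *Dkk3*, *Fzd1* and *Ryk*) and 0 fell by limma, against 27.7% and 9.39% of all tested genes called higher and lower. At an unadjusted p below 0.05, 8 members were higher and 3 lower (*Axin2*, *Lrp5* and *Wnt9a*), beside 33.9% and 12.8% of all genes. The study's kind of screen (fold of at least 2 and probability of at least 0.8), recomputed here, gave 3 higher (*Frzb*, *Sfrp1*, *Sfrp2*) and 0 lower, beside 6.06% and 0.906%. The share of members that rose was thus close to the background, and their median log2 fold change was 0.188 beside 0.185 for all genes. By role, 4 of the 5 tested inhibitors (of 11 in all), 2 of 8 Frizzled receptors, 1 of 5 co-receptors and 0 of 5 ligands rose. The libraries did not overlap for 9 members that were higher and 5 that were lower, beside 48.3% and 22.1% of all tested genes. With quantile normalization the split was 4 members higher (*Frzb*, *Fzd2*, *Sfrp1*, *Sfrp2*) and 5 lower (*Axin2*, *Fzd8*, *Lrp5*, *Wnt5a*, *Wnt9a*), and with upper-quartile scaling 4 higher and 3 lower. Each count of lower members given here that is above 0 includes *Axin2*, whose direction the filter fixed.

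The strongest rise was that of *Sfrp2* (NCBI gene 20319; mm9 chromosome 3, 83570243 to 83578238, plus strand), a secreted Frizzled-related protein known from fibroblasts of healing tissue. Its FPKM was 2.69 and 2.8 in the sham hearts, 14.96 and 18.81 in the WT infarcts, and 23.23 and 25.65 in the KO-labelled infarcts. Each group lay above the one before it with no overlap. The step between the infarct groups did not pass the test, here or for *Sfrp1*, *Dkk3* and *Fzd2* below. Of all tested genes, 30.8% were higher in that step without overlap. Between WT MI and WT sham, *Sfrp2* changed by 2.25 on the log2 scale (standard error 0.15, limma adjusted p = 5.8e-05), a 6.15-fold difference in mean FPKM. It was called under all 16 alternative settings, with a range from 1.49 to 2.57.

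*Sfrp1* (NCBI gene 20377; mm9 chromosome 8, 24521974 to 24560104, plus strand) encodes another secreted Frizzled-related protein and was the most abundant inhibitor in WT sham. Its FPKM was 4.26 and 5.76 in the sham hearts, 13.24 and 14.61 in the WT infarcts, and 27.03 and 22.17 in the KO-labelled infarcts. The 3 groups did not overlap. In WT MI it was 2.78-fold the WT sham mean (log2 fold change 1.32, standard error 0.17, adjusted p = 0.00086), and it was called under all 16 settings.

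*Frzb* (NCBI gene 20378; mm9 chromosome 2, 80252127 to 80287782, minus strand), the secreted Frizzled-related protein first known from cartilage, had an FPKM of 1.29 and 1.35 in the sham hearts, 6.32 and 6.84 in the WT infarcts, and 7.04 and 7.5 in the KO-labelled infarcts. Infarct and sham libraries were far apart, and the infarct groups lay close to each other. The log2 fold change in WT MI was 1.71 (standard error 0.16, adjusted p = 0.00021), or 4.98-fold in mean FPKM, and it too was called under all 16 settings.

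*Dkk3* (NCBI gene 50781; mm9 chromosome 7, 119259533 to 119302571, minus strand) is a divergent Dickkopf protein whose action on Wnt signalling is less settled than that of *Dkk1*. Its FPKM was 1.12 and 1.17 in the sham hearts, 2.19 and 3.16 in the WT infarcts, and 4.81 and 6.3 in the KO-labelled infarcts, about 11.9 and 11.8, 29.6 and 41.6, and 69.2 and 87.1 fragments at the estimated depth. The groups again formed 3 separate steps. In WT MI it was higher by 0.76 on the log2 scale (standard error 0.21, limma adjusted p = 0.026), a call that was lost under 7 of 15 settings, among them both WT sham libraries left out in turn, WT MI replicate 2 left out, and upper-quartile or quantile scaling (adjusted p from 0.018 to 0.17).

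The other inhibitors were low. *Wif1*, the Wnt inhibitory factor, had an FPKM of 1.13 and 1.03 in the sham hearts, 1.54 and 0.79 in the WT infarcts, and 0.83 and 1.4 in the KO-labelled infarcts, and its groups overlapped in every comparison. *Dkk2* had 0.17 and 0 in the sham hearts, 0.26 and 0.4 in the WT infarcts, and 0.87 and 0.97 in the KO-labelled infarcts, at most about 14.8 fragments; it missed the filter and was not tested. *Dkk1* was listed in 4 libraries at 0.82 or below, *Sfrp4* in 6 at 0.41 or below, *Sfrp5* in 5 at 0.54 or below, and *Dkkl1* in 1 at 0.27, while *Dkk4* was listed nowhere. Summed over the 11 inhibitors, the FPKM was 12.01 and 13.41 in the sham hearts, 39.86 and 45.44 in the WT infarcts, and 64.57 and 65.16 in the KO-labelled infarcts, of which the *Sfrp* genes and *Frzb* held 73.0% and 80.5% in WT sham but 85.5% to 90.4% in infarct libraries. The summed fibroblast markers, given further on, stepped up in the same order. Of those 9 markers, *Pdgfra* and *Dcn* had negative log2 fold changes between the infarct groups and the other 7 positive ones. The part of these markers in the inhibitor sums was not tested.

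**Figure D2:**
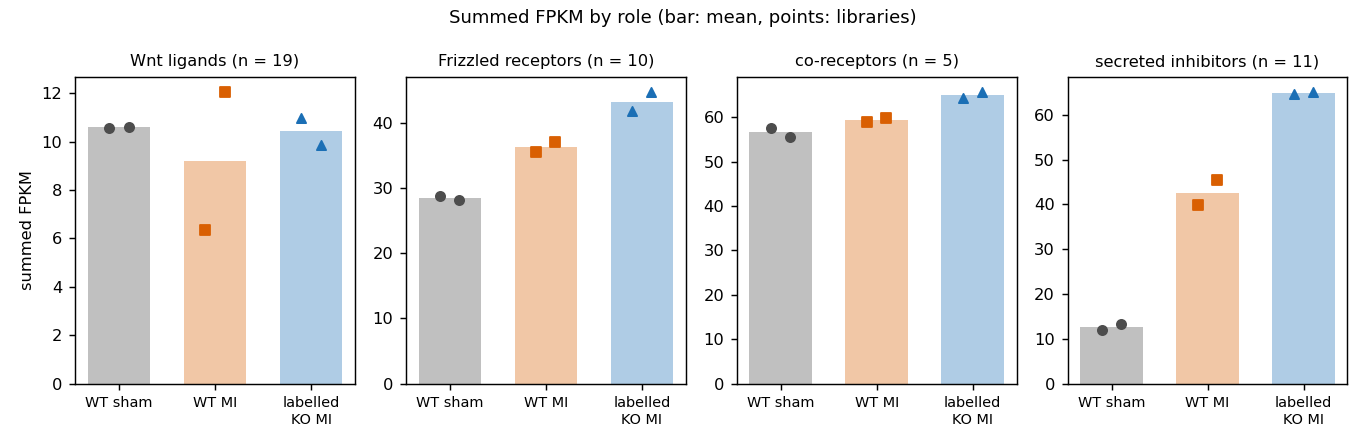
Summed FPKM of all members of each role, each panel on its own axis from 0 (bars: mean of 2 libraries; points: libraries), in WT sham, WT MI and the libraries labelled Card9 KO MI. The inhibitors rise from 12.01 and 13.41 in WT sham to 64.57 and 65.16 in the KO-labelled infarcts, while the ligands lie between 6.36 and 12.06 in all groups.

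The promoters of *Sfrp2* and *Frzb*, the inhibitors with the 2 largest fold changes in WT MI, are shown beside that of *Axin2*, the pathway's feedback gene. Each runs from 250 bases before to 50 after the RefSeq start site in GRCm38.p6, a later build than the mm9 of the files, 5′ to 3′ on the gene's strand, with CpG dinucleotides in capitals. *Sfrp2* lies at chr3:83766071-83766370 (plus strand), *Frzb* at chr2:80447347-80447646 (minus strand) and *Axin2* at chr11:108920099-108920398 (plus strand).
Sfrp2: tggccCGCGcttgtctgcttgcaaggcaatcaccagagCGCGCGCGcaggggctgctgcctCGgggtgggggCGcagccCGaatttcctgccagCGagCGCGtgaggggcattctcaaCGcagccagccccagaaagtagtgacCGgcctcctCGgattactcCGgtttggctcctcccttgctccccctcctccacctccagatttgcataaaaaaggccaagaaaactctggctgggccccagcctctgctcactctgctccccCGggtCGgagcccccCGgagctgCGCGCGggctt
Frzb: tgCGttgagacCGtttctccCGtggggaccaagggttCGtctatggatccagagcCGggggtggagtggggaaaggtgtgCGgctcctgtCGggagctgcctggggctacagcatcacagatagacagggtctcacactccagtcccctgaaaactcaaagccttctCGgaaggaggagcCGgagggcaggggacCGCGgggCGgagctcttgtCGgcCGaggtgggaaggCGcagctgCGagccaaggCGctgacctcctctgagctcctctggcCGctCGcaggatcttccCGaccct
Axin2: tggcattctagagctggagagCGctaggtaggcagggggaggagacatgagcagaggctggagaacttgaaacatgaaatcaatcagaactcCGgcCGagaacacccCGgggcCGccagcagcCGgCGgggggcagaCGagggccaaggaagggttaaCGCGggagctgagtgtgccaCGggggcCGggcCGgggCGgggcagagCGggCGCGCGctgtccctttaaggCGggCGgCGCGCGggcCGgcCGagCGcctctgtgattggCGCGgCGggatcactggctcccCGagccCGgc
They hold 22, 20 and 31 CpG dinucleotides. RefSeq promoters were found for 32 of the 46 members (35 windows), with a median of 26 CpG dinucleotides against 7 over all 32851 windows; 24 of the 35 (68.6%) held at least 20, against 26.5% of all. The TCF/LEF letters CTTTGAA or CTTTGAT, searched on both strands, were in 3 of the 35 windows (8.57%), 1 each of *Dkk1*, *Wnt11* and *Wnt5b*, and in 8.65% of all windows. They were in none of the 3 promoters printed above. These are matches of letters, and no binding was measured.

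Among the Frizzled receptors, *Fzd2* (NCBI gene 57265; mm9 chromosome 11, 102465745 to 102469372, plus strand) changed most. Its FPKM was 1.3 and 1.17 in the sham hearts, 4.87 and 5.15 in the WT infarcts, and 9.02 and 9.0 in the KO-labelled infarcts, with no overlap between any 2 groups. In WT MI it was 4.06-fold the WT sham mean (log2 fold change 1.43, standard error 0.16, adjusted p = 0.00044), called under all 16 settings. Its share of the summed Frizzled FPKM went from 4.53% and 4.16% in WT sham to 13.7% and 13.9% in the WT infarcts and 21.6% and 20.1% in the KO-labelled ones. *Fzd1*, of the same receptor subfamily, had 2.85 and 2.23 in the sham hearts, 4.46 and 4.64 in the WT infarcts, and 5.39 and 6.6 in the KO-labelled infarcts. Its log2 fold change in WT MI was 0.65 (standard error 0.18, adjusted p = 0.024), and the call was lost under the 3 other scalings and without WT sham replicate 2, WT MI replicate 1 or WT MI replicate 2 (adjusted p up to 0.21).

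*Fzd4*, the receptor of vascular endothelium that also binds norrin, was the most abundant Frizzled receptor in every library. Its FPKM was 9.96 and 10.92 in the sham hearts, 13.05 and 14.44 in the WT infarcts, and 12.88 and 14.85 in the KO-labelled infarcts. The infarct libraries lay above WT sham, but the WT MI difference did not pass the test (log2 fold change 0.37, standard error 0.13, adjusted p = 0.065). *Fzd6*, which serves planar cell polarity, had 7.13 and 6.08 in the sham hearts, 6.18 and 5.55 in the WT infarcts, and 6.02 and 6.34 in the KO-labelled infarcts, with all groups overlapping. *Fzd5*, *Fzd7*, *Fzd8* and *Fzd9* lay between 0.23 and 3.92 over all libraries, *Fzd3* was listed at 0.09 to 0.46 and not tested, and *Fzd10* was listed nowhere. *Fzd8* was lower in both WT MI libraries (2.27 and 2.57) than in WT sham (3.0 and 3.92), at a log2 fold change of −0.38 (adjusted p = 0.16).

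The co-receptors held the largest summed FPKM of any role in WT sham, 57.49 and 55.6. *Ryk*, a receptor with a Wnt inhibitory factor domain, had an FPKM of 18.32 and 19.49 in the sham hearts, 26.06 and 27.91 in the WT infarcts, and 27.2 and 26.86 in the KO-labelled infarcts. It rose in WT MI (by 0.49 on the log2 scale, standard error 0.10, adjusted p = 0.0087), but not with upper-quartile or quantile scaling or without WT MI replicate 2 (adjusted p up to 0.085). *Lrp5* had 25.95 and 22.52 in the sham hearts, 19.77 and 18.38 in the WT infarcts, and 22.44 and 22.91 in the KO-labelled infarcts. The WT MI libraries were the lowest, at a log2 fold change of −0.33 (standard error 0.12, adjusted p = 0.060), which passed the test under 4 of 16 settings (adjusted p from 0.0086 to 0.25), the 3 other scalings among them. *Lrp6* had 9.45 and 9.93, 8.72 and 9.37, and 10.78 and 11.34 in the same order (adjusted p = 0.61 in WT MI against WT sham). *Ror1* lay between 2.6 and 3.53 and *Ror2* between 0.31 and 1.62 over all libraries, and neither passed the test as fitted to all 3 groups. In *Card9* KO MI against WT sham, *Ror2* was called higher under 2 of 15 settings (eBayes without trend, and without WT sham replicate 2; adjusted p from 0.039 to 0.44) and *Ror1* lower under 1, quantile normalization (adjusted p = 0.048). By mean level, *Lrp5* ranked first in WT sham and *Ryk* second; in WT MI *Ryk* came before *Lrp5* and *Sfrp2*; and in *Card9* KO MI the order was *Ryk*, *Sfrp1*, *Sfrp2* and *Lrp5*, where the libraries of *Sfrp1* overlapped those of the other three.

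Of the 19 Wnt ligands, 5 passed the filter, 9 others were listed in some libraries at an FPKM of at most 0.64, and 5 (*Wnt10a*, *Wnt3*, *Wnt3a*, *Wnt8a* and *Wnt8b*) were listed nowhere. *Wnt5a*, the prototype of the ligands that signal without β-catenin, was the most abundant ligand by mean level in every group. Its FPKM was 3.11 and 4.43 in the sham hearts, 1.51 and 3.12 in the WT infarcts, and 2.29 and 2.48 in the KO-labelled infarcts. WT MI replicate 1 was the lowest, and WT MI overlapped WT sham (−0.55 on the log2 scale, standard error 0.27, adjusted p = 0.15). Without WT MI replicate 2 the log2 fold change was −0.91 and was called, and it was called with quantile normalization too (adjusted p from 0.039 to 0.62 over the settings).

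*Wnt9a*, a ligand known from joint formation, had an FPKM of 2.65 and 3.06 in the sham hearts, 1.18 and 1.98 in the WT infarcts, and 1.95 and 1.59 in the KO-labelled infarcts. All 4 infarct libraries lay below both WT sham libraries, at a log2 fold change of −0.59 in WT MI (standard error 0.23, adjusted p = 0.074) and −0.48 in *Card9* KO MI (adjusted p = 0.12). It was called lower in WT MI under 4 of 15 settings, the 3 other scalings and eBayes without trend (adjusted p from 0.014 to 0.33). *Wnt11*, *Wnt5b* and *Wnt4* lay between 0.36 and 2.52, and their WT MI and WT sham libraries overlapped. The untested ligands rested on few fragments: *Wnt7a* was listed only in the libraries labelled *Card9* KO MI, at 0.51 and 0.23, which stand for about 6.93 and 3.01 fragments. Summed over the 19 ligands, the FPKM was 10.58 and 10.61 in the sham hearts, 6.36 and 12.06 in the WT infarcts, and 10.98 and 9.88 in the KO-labelled infarcts. The summed inhibitor FPKM was 1.14 and 1.26 times the summed ligand FPKM in WT sham, 6.27 and 3.77 times in WT MI, and 5.88 and 6.6 times in *Card9* KO MI. The ligand sums overlapped between all groups.

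*Axin2* (NCBI gene 12006; mm9 chromosome 11, 108781663 to 108812097, plus strand), the scaffold of the β-catenin destruction complex that is itself induced by β-catenin, had an FPKM of 1.46 and 1.3 in the sham hearts, 0.4 and 0.47 in the WT infarcts, and 0.7 and 0.11 in the KO-labelled infarcts. These values stand for about 19.7 and 16.6, 6.86 and 7.85, and 12.8 and 1.93 fragments, so the infarct levels are known only roughly. All infarct libraries lay below both WT sham libraries, an order that the filter fixed, since *Axin2* passed it through WT sham alone. Its tests below therefore lend no support to a fall. With either WT sham library left out, *Axin2* missed the filter and was not fitted. The log2 fold change was −0.73 in WT MI (standard error 0.28, adjusted p = 0.074, called lower under 4 of 13 settings, from 0.019 to 0.20) and −0.79 in *Card9* KO MI (adjusted p = 0.046). The second call was lost under 6 of 13 settings, among them the fits without WT MI replicate 1, WT MI replicate 2 and *Card9* KO MI replicate 2 (log2 fold change from −1.10 to −0.49 over the libraries left out, adjusted p from 0.0092 to 0.24 over all settings).

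**Figure D3:**
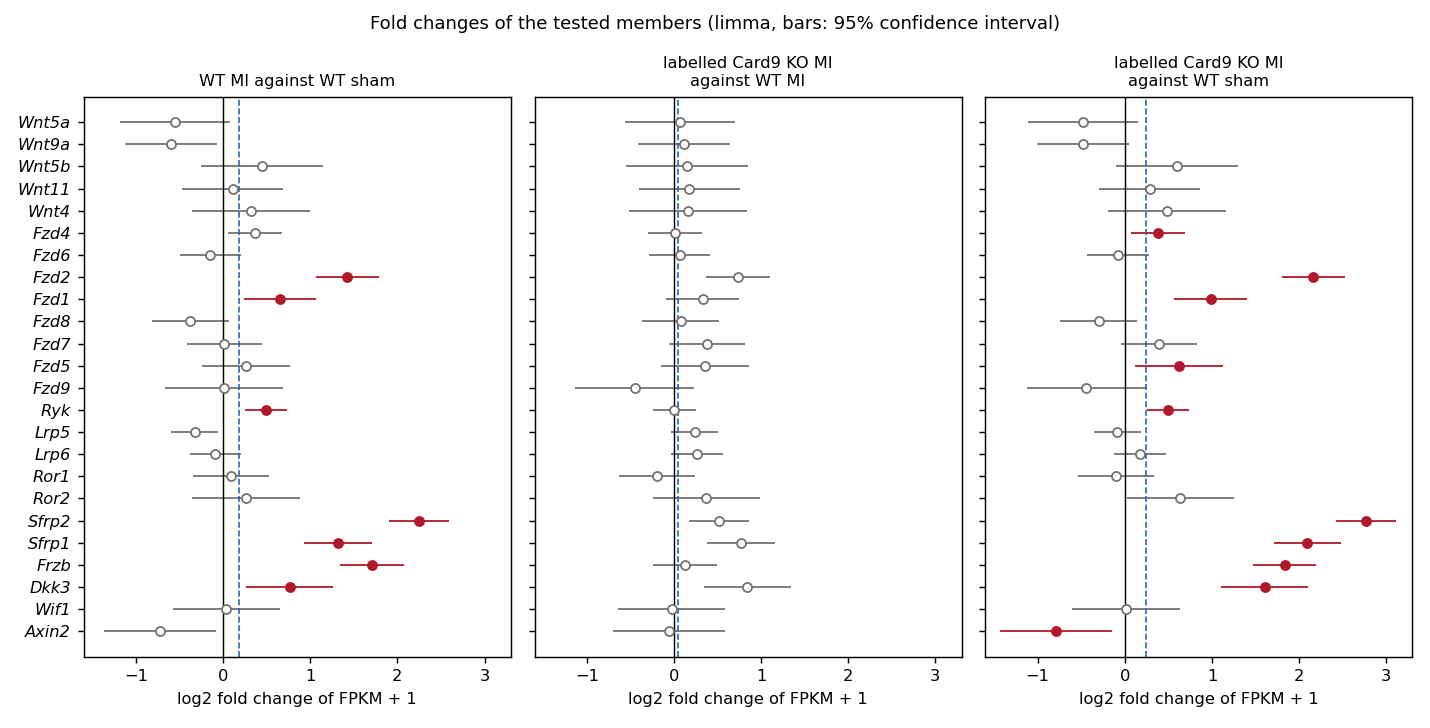
Log2 fold change of FPKM + 1 of each tested member in the 3 comparisons, with its 95% confidence interval (limma); filled red points passed the adjusted p threshold and the dashed line is the median of all tested genes. In both comparisons with WT sham the calls lie among the inhibitors and Frizzled receptors, with Ryk in both and Axin2 in the last. Axin2 passed the filter through WT sham alone, which fixed its direction. None passed in the middle panel, which sets the infarct groups against each other.

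Next, the libraries labelled *Card9* KO MI were set against WT MI, to ask whether the family differed with the genotype on the label. No member passed the test: 0 were higher and 0 lower by limma, against 0.816% and 0.587% of all tested genes, and the recomputed screen also gave 0 and 0, beside 0.728% and 0.332%. At an unadjusted p below 0.05, 4 members were higher (*Dkk3*, *Sfrp1*, *Fzd2* and *Sfrp2*) and 0 lower, beside 11.5% and 8.57% of all genes. The libraries did not overlap for 11 members that were higher and 2 that were lower, where the background was 30.8% and 21.9%. The median log2 fold change of the tested members was 0.157, and that of all genes 0.045.

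*Fzd2* had a log2 fold change of 0.74 (95% confidence interval 0.372 to 1.10, adjusted p = 0.068) and was 1.8-fold the WT MI mean. *Sfrp1* had 0.77 (0.384 to 1.16, adjusted p = 0.072) and was 1.77-fold, *Dkk3* had 0.84 (0.339 to 1.34, adjusted p = 0.10) and was 2.08-fold, and *Sfrp2* had 0.52 (0.172 to 0.859, adjusted p = 0.12) and was 1.45-fold. *Fzd2* and *Sfrp1* were called with a pseudocount of 5 and *Sfrp1* among genes with a mean FPKM of at least 5. The adjusted p reached 0.30 for *Fzd2*, 0.32 for *Sfrp1*, 0.40 for *Dkk3* and 0.47 for *Sfrp2* over the settings. *Frzb*, at 0.13 (−0.238 to 0.490), and *Ryk*, at 0.00 (−0.241 to 0.247), lay near 0, and intervals of this width leave room for moderate differences. An exact permutation test of 2 libraries against 2 cannot give a p below 0.333.

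The last comparison, *Card9* KO MI against WT sham, shares the WT sham libraries with the first and is given beside it. Here 9 members rose and 1, *Axin2*, fell, against 34.8% and 14.3% of all tested genes. The direction of *Axin2* was fixed by the filter, which it passed through WT sham alone. The libraries did not overlap for 14 higher and 5 lower members, beside 51.6% and 24.5%. At an unadjusted p below 0.05 there were 10 higher and 1 lower, beside 39.4% and 16.7%, and the screen gave 4 higher (*Frzb*, *Fzd2*, *Sfrp1*, *Sfrp2*) and 0 lower, beside 8.56% and 1.94%. The median log2 fold change was 0.385 for the tested members and 0.238 for all genes. *Sfrp2* had a log2 fold change of 2.76 (8.9-fold in mean FPKM), *Fzd2* 2.16 (7.3-fold), *Sfrp1* 2.10 (4.91-fold), *Frzb* 1.83 (5.51-fold), *Dkk3* 1.60 (4.85-fold), *Fzd1* 0.98 (2.36-fold) and *Ryk* 0.49 (1.43-fold). The first 6 were called under every setting in which they were tested, and *Ryk* under 14 of 16. *Fzd4* (0.38, adjusted p = 0.048) and *Fzd5* (0.62, adjusted p = 0.047), which went from an FPKM of 1.04 and 0.81 to 2.05 and 1.86, passed narrowly: leaving out any of the 6 libraries ended both calls, and they held under 3 of 16 and 3 of 15 settings. Without a filter on low values, *Dkk2* and *Wnt7a* were called higher as well.

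The genes around the family were taken from 4 lists, whose counts are read against the shares of all tested genes called higher and lower. These were 27.7% and 9.39% in the first comparison, 0.816% and 0.587% between the infarct groups, and 34.8% and 14.3% in the last. The genes of these lists were not followed through the alternative settings, under which the calls over all genes between the infarct groups varied widely. Of the secretion pair, *Wls*, the carrier that brings Wnts to the cell surface, rose in WT MI: its FPKM was 16.12 and 15.06 in the sham hearts, 30.04 and 27.33 in the WT infarcts, and 32.45 and 32.18 in the KO-labelled infarcts (log2 fold change 0.84, adjusted p = 0.00091). The other gene of the pair did not pass the test. Among 29 extracellular and membrane modulators, 18 were tested; in WT MI 3 rose (*Cthrc1*, *Ptk7*, *Gpc4*) and 2 fell (*Kremen1*, *Trabd2b*), and in *Card9* KO MI against WT sham 3 rose and 3 fell, with *Lgr4* the added one. The share that rose, 3 of 18, was below that of all genes in both. *Cthrc1*, a secreted protein that can hold Wnt and Frizzled together, had an FPKM of 0.55 and 0.29 in the sham hearts, 19.81 and 28.79 in the WT infarcts, and 81.74 and 74.19 in the KO-labelled infarcts. Its log2 fold change was 4.14 in WT MI (adjusted p = 1.9e-05), and it was the 1 modulator called between *Card9* KO MI and WT MI (1.66, standard error 0.19, adjusted p = 0.015). *Kremen1*, a Dickkopf receptor, went down from 49.38 and 45.43 in WT sham to 35.34 and 35.53 in WT MI (log2 fold change −0.41, adjusted p = 0.017). *Trabd2b*, a protease that inactivates Wnts, went from 39.41 and 37.52 to 28.13 and 23.8 (−0.55, adjusted p = 0.012).

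Of 31 genes of intracellular transduction, 29 were tested; 5 rose and 2 fell in WT MI, 7 rose and 3 fell in *Card9* KO MI against WT sham, and 0 were called between *Card9* KO MI and WT MI. The shares that rose were below those of all genes. *Tle3*, a co-repressor of TCF factors, rose in WT MI (log2 fold change 1.22, adjusted p = 0.00046), as did *Pygo2*, a β-catenin co-activator (0.83, adjusted p = 0.0059), and *Dvl2* (0.68, adjusted p = 0.046). *Pygo1*, the paralogue of *Pygo2*, fell from 9.82 and 8.72 to 3.84 and 3.65 (−1.11, adjusted p = 0.0026), and *Daam1*, which links Dishevelled to actin, fell as well (−0.46, adjusted p = 0.016). Of 16 β-catenin target genes, 9 were tested. In WT MI 5 rose (*Cd44*, *Ccn4*, *Myc*, *Ccn5*, *Ccnd1*) and 0 fell, and the 4 others tested (*Apcdd1*, *Nkd1*, *Nkd2* and *Znrf3*) were not called. The rest of the list did not reach the filter. *Axin2*, which is not on this list, had −0.73 without passing the test, and the filter had fixed its direction. In *Card9* KO MI against WT sham 6 rose, with *Nkd2* the added one, and 0 fell. The shares that rose were above those of all tested genes, 27.7% and 34.8%. These genes also have other inducers, and what moved them here was not tested. *Ccn4*, a matricellular protein, had an FPKM of 0.44 and 0.39 in the sham hearts, 6.53 and 5.56 in the WT infarcts, and 13.23 and 12.97 in the KO-labelled infarcts. It was the 1 target called between *Card9* KO MI and WT MI (1.00 on the log2 scale, standard error 0.16, adjusted p = 0.039).

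**Figure D4:**
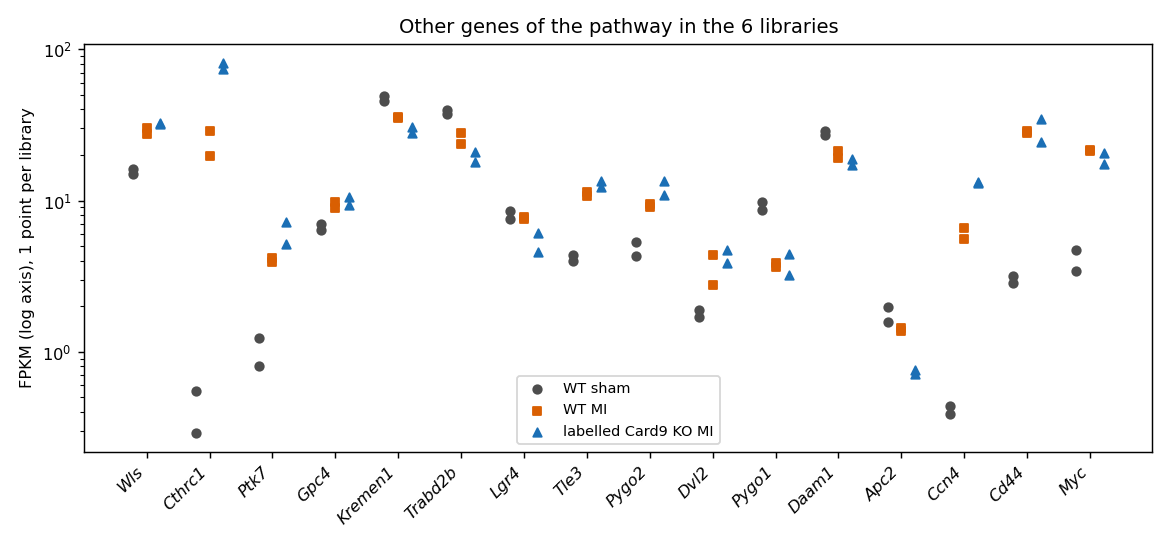
FPKM (log axis) of 16 named genes of Wnt secretion, modulation, transduction and β-catenin targets, 1 point per library, by group. Cthrc1 and Ccn4 step up from WT sham to WT MI and again to the libraries labelled Card9 KO MI, while Pygo1 and Kremen1 are lower in the infarct libraries.

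Markers of several cell types moved with these results. The summed FPKM of 9 fibroblast markers was 518.0 and 493.9 in the sham hearts, 1489 and 2012 in the WT infarcts, and 3198 and 3067 in the KO-labelled infarcts. Of these markers, 7, 3 and 8 were called higher in the 3 comparisons in the order given above. *Pdgfra* and *Dcn* had negative log2 fold changes between the infarct groups, the other 7 positive ones. The FPKM of *Pdgfra* was 7.25 and 8.15 in the sham hearts, 15.2 and 15.87 in the WT infarcts, and 10.64 and 10.43 in the KO-labelled infarcts. Its step between the infarct groups did not pass the test (log2 fold change −0.52, limma adjusted p = 0.094). The 8 macrophage markers, all called higher in both comparisons with WT sham, summed to 201.3 and 171.7, 646.2 and 788.1, and 1419 and 1032. The 6 proliferation markers went from 5.77 and 2.94 to 42.5 and 54.68 and to 98.29 and 80.13. The 8 neutrophil markers were highest in WT MI, at 211.7 and 92.89, beside 7.64 and 5.4 in WT sham and 59.84 and 46.73 in *Card9* KO MI. The 9 cardiomyocyte markers summed to 43610 and 45390 in the sham hearts, 28160 and 28730 in the WT infarcts, and 23170 and 26960 in the KO-labelled infarcts, with 6 called lower in the first comparison and 9 in the last. In WT MI against WT sham 3 mural cell markers were called higher and 2 lower, 2 endothelial markers higher and 1 lower, and 0 of the tested epicardial, atrial, adipocyte or T and B cell markers. Mural cell markers summed to 197.1 and 230.3, 260.4 and 234.1, and 417.7 and 416.9, and endothelial markers to between 353.9 and 435.9. Epicardial, atrial, adipocyte and T and B cell markers summed to at most 14.85 in any library. Between the infarct groups, the mural cell marker *Acta2* and the epicardial marker *Krt18* were called higher. None of the tested macrophage, neutrophil, proliferation, cardiomyocyte or endothelial markers was called there. The part of these shifts in the Wnt family's values was not tested.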

How the data were processed

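RNA was extracted with TRIzol, mRNA was enriched with oligo(dT) and libraries were sequenced by the authors on an Illumina HiSeq. The authors used BWA and Bowtie2 to map filtered reads to mm9. Deposited values are FPKM, listed by NCBI gene number in a file for each library; the annotation, counter and strand setting are not given in the sources used here. FPKM is relative within a library, so a change in a few abundant genes shifts the rest. Gene numbers were matched to symbols for 17390 genes and not for 51. No counts were used, and depth was estimated from the spacing of low values.

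Groups came from the labels. limma 3.58.1 (R 4.3.3; lmFit, eBayes with trend) was fitted to log2(FPKM + 1) of all 3 groups, with Benjamini-Hochberg adjustment over all tested genes, and was tested on simulated data. The alternatives were other pseudocounts, filters, scalings and variance priors, 2 groups alone, each library left out, a replicate block and the study's screen. Members and lists were chosen with earlier results of these data known. Every tested member was named; of each pathway list, at most 3 genes called per direction and comparison were named with values. Markers were given as sums, apart from the values of *Myh6* and *Pdgfra*.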

Additional observations from a re-analysis of the deposited data

How the results depend on the processing

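No result changed direction while called. For WT MI against WT sham (7 members higher, 0 lower), upper-quartile scaling gave 4 and 3, quantile normalization 4 and 5, and the recomputed screen 3 higher; 1 was lower among genes with a mean FPKM of at least 5 and with only the 2 groups compared, and 2 were lower with scaling without the 100 most abundant genes and with eBayes without trend. Leaving out 1 library gave 4 to 7 higher and 0 to 1 lower, with 4 and 1 without WT MI replicate 2. For *Card9* KO MI against WT MI, 2 were higher with a pseudocount of 5 and 1 with a mean FPKM of at least 5; leaving out libraries gave 0. For *Card9* KO MI against WT sham (9 higher, 1 lower), 0 were lower with a pseudocount of 0.1, a mean FPKM of at least 5 and only the 2 groups compared, but 3 after upper-quartile scaling and 7 after quantile normalization; the screen gave 4 higher and 0 lower, and leaving out 1 library 7 to 8 higher and 0 to 1 lower. The cause was not tested.

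Same-numbered replicates did not deviate together over all genes (correlations 0.002, −0.008 and 0.02). A pairing with small effects, or with effects on few genes, cannot be seen this way, and the labels name none. With a replicate block the counts were 7 and 0, 0 and 0, and 8 and 0. Over all genes, *Card9* KO MI against WT MI gave 107 higher and 77 lower, but 7 and 5 without a filter, 47 and 33 with a pseudocount of 0.1, 200 and 112 with 5, 45 and 26 with the block, and 5 and 4 without WT MI replicate 1. Quantile normalization gave 2287 higher and 2414 lower instead of 3637 and 1232 in WT MI against WT sham, and 2843 and 3409 instead of 4569 and 1875 in *Card9* KO MI against WT sham. Members under an FPKM of 0.5 rest on a few fragments.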
